A study of Mus musculus with 8 samples.

Results

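Standalone long noncoding RNA (lncRNA) promoters were examined for peaks of PBRM1 and BRG1 in mouse uterine stromal cells. A gene was counted as a standalone lncRNA when GENCODE annotated it on chromosomes 1 to 19 as lincRNA, antisense, processed_transcript or sense_intronic and when its 5′ end lay more than 5 kb from the start of every protein-coding transcript. Of the 9202 genes of these 4 types, 6762 met the rule, comprising 4557 lincRNA, 1584 antisense, 378 processed_transcript and 243 sense_intronic genes. The region read for each gene was its 5′ end with 1 kb on either side, and a gene had a peak when at least 1 bp of a peak fell in that region. The rule itself uses annotation and no measured value.

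An lncRNA is transcribed by RNA polymerase II from a promoter of its own, and its product can act in cis on a neighbouring gene, scaffold a nuclear body, host small RNAs in its introns, or have no known function. Promoters of lncRNAs resemble those of protein-coding genes, but fewer of them lie in CpG islands, and many lncRNAs are transcribed at low levels in few cell types. PBRM1 (also called BAF180) is the bromodomain subunit that marks the PBAF form of the SWI/SNF chromatin remodeling complex, and BRG1 (encoded by *Smarca4*) is an ATPase found in all of its forms that contain it, so that BRG1 can occupy chromatin with or without PBRM1.

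The study asked where SWI/SNF complexes that contain PBRM1 sit in the genome of stromal cells from the receptive uterus. In chromatin immunocleavage sequencing (ChIC-Seq), an antibody directs micrococcal nuclease to the chromatin around its antigen and the released DNA fragments are sequenced. Primary stromal cells came from uterine horns of WT mice 8 to 12 weeks old on D4, pooled from 5 to 10 pseudopregnant animals per the protocol, although the treatment label mentions mating with a stud male. Per the labels, each library was made from 50000 fixed cells after a short culture (the study's methods describe a larger number of cells), with 3 libraries for PBRM1 and 3 for BRG1. The 2 IgG libraries were not analysed here, and each peak is therefore an enrichment over the local background of the same library.

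The PBRM1 libraries held 8868777 to 16505239 fragments and 21912 to 26363 peaks, and the BRG1 libraries held 11506964 to 14595089 fragments and 36656 to 40610 peaks. The authors also deposited 1 list for each antibody called on the pooled fragments, with 55119 PBRM1 and 82669 BRG1 peaks. At the promoters of stromal marker genes, 5 of 11 (*Hand2*, *Pdgfrb*, *Pgr*, *Twist2* and *Vim*) had a peak in all 6 libraries, near the 42.6% of lone coding genes (defined below) that had one, and none of the 11 lacked a peak in every library. None of 8 epithelial marker genes had a peak in all 6 libraries and 2 had none, and 1 of 4 endothelial marker genes (*Kdr*) had one in all 6 and 1 (*Cdh5*) had none. All 4 immune marker genes had no peak in any library. Of lone coding genes, 38.7% had no peak in any library, a larger share than among the epithelial marker genes. These small counts were not tested. The labels do not say whether the libraries of an antibody came from separate cell preparations. The paper calls the replicates biological in the legend of a genome browser view that includes the PBRM1 and BRG1 ChIC-Seq tracks. That legend does not say which pools of mice or cells gave each library. The p-values measure the spread between these libraries, part of which may be technical. In these bulk libraries a strong peak in some cells and a weak peak in all cells cannot be told apart.

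The gene of each type with the highest pooled PBRM1 peak is printed to show the CpG content around its 5′ end, and *1600027J07Rik* is printed as a promoter with BRG1 peaks only. Each sequence below is the 300 bp from 250 bp before the 5′ end to 49 bp after it, read from RefSeq GRCm38.p6 along the strand of the gene, with CpG dinucleotides in capitals. At *AC110262.3* and *Gm48591* the pooled peaks lie further inside the gene, outside the printed stretch, so their sequences show the 5′ end and not the peak. *1700113A16Rik* (chr3:88177736-88178035, minus strand) holds 28 CpG and *9330159M07Rik* (chr9:88858821-88859120, minus strand) holds 30. *AC110262.3* (chr17:23925448-23925747, minus strand) holds 2, *Gm48591* (chr10:121462645-121462944, minus strand) holds 10 and *1600027J07Rik* (chr8:103347485-103347784, minus strand) holds 4.
1700113A16Rik: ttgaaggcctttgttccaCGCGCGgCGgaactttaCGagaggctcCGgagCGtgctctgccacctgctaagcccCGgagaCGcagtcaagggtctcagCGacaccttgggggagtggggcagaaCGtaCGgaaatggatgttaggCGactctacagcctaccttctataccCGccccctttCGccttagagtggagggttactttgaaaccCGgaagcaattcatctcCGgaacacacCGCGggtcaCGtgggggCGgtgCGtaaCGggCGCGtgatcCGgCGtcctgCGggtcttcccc
9330159M07Rik: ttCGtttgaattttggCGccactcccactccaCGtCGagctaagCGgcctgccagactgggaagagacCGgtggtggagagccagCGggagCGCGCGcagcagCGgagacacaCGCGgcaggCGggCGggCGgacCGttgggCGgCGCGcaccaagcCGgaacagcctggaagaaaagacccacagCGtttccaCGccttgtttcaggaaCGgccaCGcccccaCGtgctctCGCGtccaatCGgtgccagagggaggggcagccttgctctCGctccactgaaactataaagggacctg
AC110262.3: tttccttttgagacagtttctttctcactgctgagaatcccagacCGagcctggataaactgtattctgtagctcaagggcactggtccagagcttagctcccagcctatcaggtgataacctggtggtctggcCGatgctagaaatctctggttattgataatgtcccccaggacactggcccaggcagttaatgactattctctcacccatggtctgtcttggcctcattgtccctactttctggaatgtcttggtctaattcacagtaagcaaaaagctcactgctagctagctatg
Gm48591: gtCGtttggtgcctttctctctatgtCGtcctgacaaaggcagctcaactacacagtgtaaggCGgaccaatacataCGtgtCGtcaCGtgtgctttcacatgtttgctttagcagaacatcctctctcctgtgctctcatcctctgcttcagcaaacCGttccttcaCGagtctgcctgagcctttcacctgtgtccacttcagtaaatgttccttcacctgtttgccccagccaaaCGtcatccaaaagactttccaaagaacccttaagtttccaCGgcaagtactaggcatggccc
1600027J07Rik: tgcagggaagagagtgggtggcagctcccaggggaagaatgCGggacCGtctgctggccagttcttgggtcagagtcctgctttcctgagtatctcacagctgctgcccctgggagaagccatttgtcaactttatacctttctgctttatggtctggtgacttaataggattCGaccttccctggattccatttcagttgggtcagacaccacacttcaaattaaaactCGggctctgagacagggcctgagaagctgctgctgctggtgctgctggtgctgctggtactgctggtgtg

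A minority of standalone lncRNAs had a peak in any 1 library. A PBRM1 peak lay at 7.04%, 8.49% and 7.29% of the 6762 regions in libraries 1, 2 and 3 (7.61% ± 0.77, SD, n = 3). A BRG1 peak lay at 13.2%, 11.4% and 12.2% of them (12.3% ± 0.91, SD, n = 3). Every BRG1 library was higher than every PBRM1 library. The same held over all 51229 GENCODE genes on these chromosomes, at 25.8% to 28.6% for PBRM1 and 31.3% to 32.2% for BRG1. At standalone lncRNAs the difference of 4.66 percentage points had an exact two-sided permutation p of 0.1, the smallest that 3 libraries against 3 can give. It moved with the length of the peak lists, since with only the 20000 strongest peaks of each list the difference was 0.104 percentage points (exact permutation p = 0.6). For comparison, 2-kb windows tiled across the same chromosomes more than 5 kb from coding starts had a PBRM1 peak in 0.832% to 1.17% of 1070234 windows and a BRG1 peak in 1.89% to 2.22%.

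The gene types differed in how often they had a peak. The 378 processed_transcript genes, a class of noncoding transcripts that includes some small-RNA hosts, were highest, with PBRM1 peaks at 18.0%, 19.05% and 19.6% and BRG1 peaks at 25.9%, 23.0% and 25.1% in the 3 libraries of each antibody. The 4557 lincRNA genes had PBRM1 peaks at 6.58%, 8.27% and 7.18% and BRG1 peaks at 12.7%, 11.1% and 11.8%. The 1584 antisense genes followed closely, at 6.38%, 7.20% and 5.24% for PBRM1 and 12.6%, 10.1% and 11.2% for BRG1. The 243 sense_intronic genes, which lie inside introns of coding genes on the same strand, were lowest, at 2.88%, 4.53% and 3.70% for PBRM1 and 7.41%, 6.996% and 5.76% for BRG1. In each type, as over all genes, the BRG1 libraries did not overlap the PBRM1 libraries. The differences of 4.53 (lincRNA), 5.01 (antisense), 5.82 (processed_transcript) and 3.02 (sense_intronic) percentage points each had an exact permutation p of 0.1. With the 20000 strongest peaks of each list these differences were between −0.379 (antisense) and 0.293 (lincRNA) percentage points, and that of processed_transcript genes was −0.176.

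Within libraries, the lincRNA share was below that of processed_transcript genes, with a mean difference of −12.2 percentage points (−13.3 to −10.8) and above that of sense_intronic genes by 4.40 (3.47 to 6.02). Both differences had the same sign in 6 of 6 libraries, with an adjusted p of 0.03125 each in an exact sign-flip permutation test over the 6 libraries. That p is the smallest the test can give, and it was adjusted by Benjamini-Hochberg over the 8 comparisons of this kind. The lincRNA share exceeded the antisense share by only 0.833 percentage points on average (0.143 to 1.94, 6 of 6 libraries, exact sign-flip adjusted p = 0.03125). This small difference lost the threshold when regions that overlap another standalone lncRNA were left out (0.445 percentage points, adjusted p = 0.156, exact sign-flip test).

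Standalone lncRNAs had fewer peaks than the 16516 protein-coding genes whose 5′ ends lay more than 5 kb from any other coding gene's start (lone coding genes). Lone coding genes had a PBRM1 peak at 49.4% ± 3.15 and a BRG1 peak at 56.3% ± 0.704 (SD, n = 3). The standalone lncRNA share was lower, with a mean difference of −42.9 percentage points (−44.5 to −38.4, 6 of 6 libraries, exact sign-flip adjusted p = 0.03125). The 2440 lncRNAs within 5 kb of a coding start, whose regions often hold the coding promoter too, had a PBRM1 peak at 49.7% ± 3.14 and a BRG1 peak at 56.7% ± 0.961, and the standalone lncRNAs were lower, with a mean difference of −43.3 percentage points (6 of 6 libraries, exact sign-flip adjusted p = 0.03125). At the 5-kb limit itself the share did not drop. The 467 lncRNAs at 2.5 to 5 kb had PBRM1 peaks at 7.71% to 9.21% and BRG1 peaks at 12.8% to 15.0%. The 316 at 5 to 7.5 kb had higher shares, at 11.1% to 12.3% and 16.5% to 19.6%.

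On the log2 scale, the ratio of the standalone lncRNA share to the lone coding share was −2.86, −2.60 and −2.65 in the PBRM1 libraries and −2.11, −2.29 and −2.20 in the BRG1 libraries. The BRG1 libraries were thus nearer to the coding level by 0.50 (exact permutation p = 0.1, the smallest possible). With 20000 peaks from each list this difference was −0.03.

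**Figure D1:**
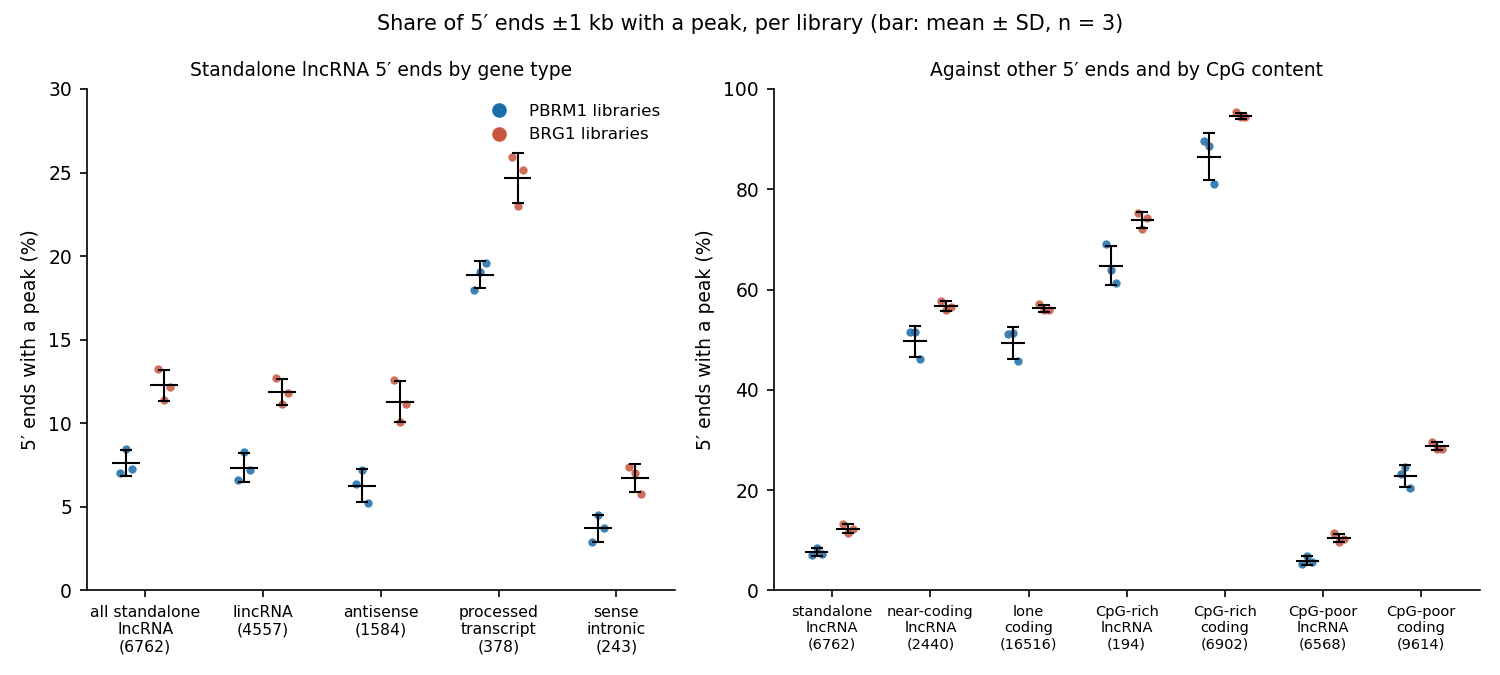
Share of 5′ ends with a peak within 1 kb (%, vertical axes) in each PBRM1 and BRG1 library, by gene type of the standalone lncRNA (left) and against other classes of 5′ ends (right), with the number of genes under each name, points for single libraries, and bars for mean ± SD (n = 3). Processed_transcript genes sit highest on the left, at 18.0% to 25.9%, and CpG-rich lncRNA promoters reach 61.3% to 75.3% on the right, below CpG-rich lone coding promoters.

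CpG-rich standalone lncRNA promoters had peaks far more often than CpG-poor ones. A promoter was called CpG-rich when the 5′ end with 500 bp on either side had at least 50% G and C and an observed-to-expected CpG ratio of at least 0.6, and 194 of the 6762 (2.87%) qualified, against 41.8% of lone coding promoters. The 194 had PBRM1 peaks at 69.1%, 63.9% and 61.3% and BRG1 peaks at 75.3%, 72.2% and 74.2%. The 6568 others had them at 5.21%, 6.85% and 5.69% (PBRM1) and 11.4%, 9.61% and 10.3% (BRG1). No library overlapped between the classes, and the difference averaged 61.1 percentage points (55.6 to 63.9, 6 of 6 libraries, exact sign-flip adjusted p = 0.03125).

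Standalone lncRNAs remained below lone coding genes within each class. Among CpG-rich promoters 86.5% ± 4.70 of the coding genes had a PBRM1 peak and 94.7% ± 0.569 a BRG1 peak (SD, n = 3), and the lncRNA share was lower, with a mean difference of −21.2 percentage points (−24.7 to −19.7, 6 of 6 libraries, exact sign-flip adjusted p = 0.03125). Among CpG-poor promoters the coding values were 22.7% ± 2.17 and 28.7% ± 0.802, and the lncRNA share was again lower (mean difference −17.5 percentage points, −18.6 to −14.7, 6 of 6 libraries, exact sign-flip adjusted p = 0.03125). Of the CpG-rich promoters, 45 belonged to the 378 processed_transcript genes, 112 to the 4557 lincRNA genes, 37 to the 1584 antisense genes and none to sense_intronic genes. The 37 antisense promoters had the widest spread between libraries of these types, with PBRM1 peaks at 47.7% ± 12.5 and BRG1 peaks at 73.0% ± 8.11 (SD, n = 3). Among CpG-poor promoters alone, processed_transcript genes still had PBRM1 peaks at 11.7% ± 0.901 and BRG1 peaks at 17.9% ± 1.54 (SD, n = 3), against 5.83% ± 0.903 and 10.3% ± 0.825 for lincRNA.

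Part of the gap at CpG-rich promoters moved with repeated sequence. The authors removed reads that map to several places, and the share of 32-bp words of each region that occur at a single place on chromosomes 1 to 19, X and Y was therefore counted. Of the 36 CpG-rich standalone promoters with no peak in any library, 19 had under 50% of such unique words, and 10 of these 19 lay on chromosome 12. Of the 109 CpG-rich promoters with a peak in all 6 libraries, 3 did. With only regions of at least 90% unique words on both sides, the CpG-rich lncRNA share differed from the coding share by −10.6 percentage points. Under the same restriction the gap at CpG-poor promoters was wider, at −23.1, as was that over all promoters, at −49.4, and the difference of CpG-rich from CpG-poor lncRNAs was 71.1 (each 6 of 6 libraries, exact sign-flip adjusted p = 0.03125). Whether repeated sequence hides peaks was not tested.

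The support by replicates was uneven. In all 6 libraries, 284 standalone lncRNAs (4.20%) had a peak, against 23.5% of all 51229 GENCODE genes on these chromosomes. These were 180 lincRNA (3.95% of their type), 46 antisense (2.90%), 54 processed_transcript (14.3%) and 4 sense_intronic genes (1.65%). At the other end, 5458 (80.7%) had no peak in any library, against 64.1% of all genes. PBRM1 peaks in 3 of 3 libraries stood at 293 standalone lncRNAs (4.33%, against 23.7% of all genes), and BRG1 peaks in 3 of 3 stood at 527 (7.79%, against 28.7%). Both shares lay far below those of all genes, a set that counts every coding gene.

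**Figure D2:**
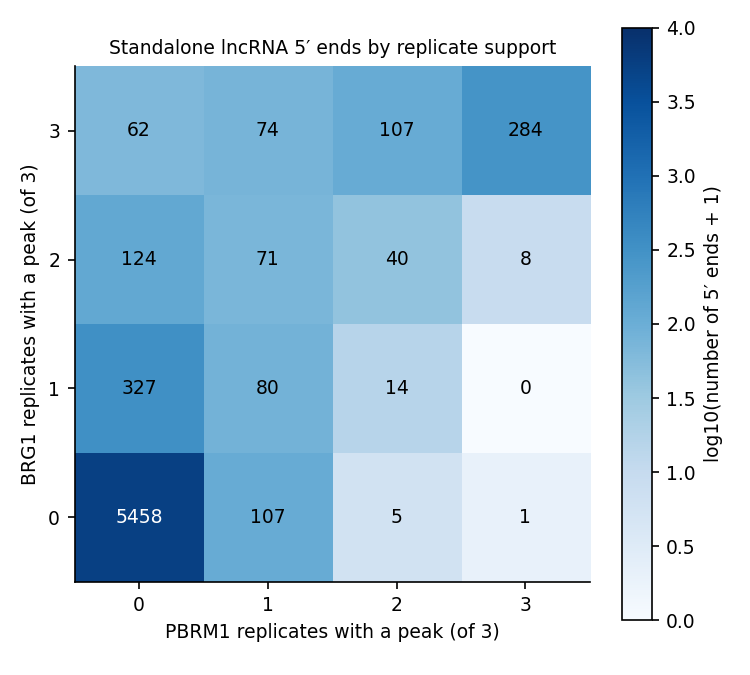
Number of standalone lncRNA 5′ ends by how many of the 3 PBRM1 libraries (horizontal axis) and of the 3 BRG1 libraries (vertical axis) had a peak, with colour for log10 of the number plus 1. The corner with all 6 libraries holds 284, the corner with none holds 5458, and only 9 have a PBRM1 peak in 3 of 3 but a BRG1 peak in fewer.

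Full support for BRG1 without full support for PBRM1 was more frequent than the reverse, as it was over all genes. The BRG1 lists were also the longer ones, at 36656 to 40610 peaks against 21912 to 26363. PBRM1 in 3 of 3 libraries with BRG1 in fewer than 3 was found at 9 standalone lncRNAs (0.133% of the 6762, against 0.207% of all genes). BRG1 in 3 of 3 with PBRM1 in fewer than 3 was found at 243 (3.59%, against 5.17% of all genes). PBRM1 was in none of the 3 at 62 of these (0.917%, against 0.709% of all genes), and 12 (0.177%, against 0.137%) had no PBRM1 peak in the pooled list either. Taken over the genes with BRG1 in 3 of 3, PBRM1 was in fewer than 3 at 46.1% of standalone lncRNAs and 18.03% of all genes. Over the genes with PBRM1 in 3 of 3, BRG1 was in fewer than 3 at 3.07% of standalone lncRNAs and 0.872% of all genes. Neither difference was tested. Among CpG-rich standalone lncRNAs, BRG1 was in 3 of 3 at 131, and 109 of these had a peak in all 6 libraries. Among CpG-poor ones these numbers were 396 and 175. The single standalone lncRNA with PBRM1 peaks in 3 of 3 and no BRG1 library peak (0.0148%, against 0.0176% of all genes) was *Gm47564*, named after its values were seen, with PBRM1 fold enrichments of 6.36, 5.70 and 3.92 over the local background. It had a peak in the pooled BRG1 list at 3.47-fold, and no standalone lncRNA had PBRM1 in 3 of 3 libraries without a BRG1 peak in any list.

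The authors' pooled lists reached further but with less support. A pooled PBRM1 peak lay at 1160 standalone lncRNAs (17.2%, against 34.5% of all genes) and a pooled BRG1 peak at 1586 (23.5%, against 37.9%). Both were present at 1019 (15.1%, against 33.4% of all genes), PBRM1 alone at 141 (2.09%, against 1.15%) and BRG1 alone at 567 (8.39%, against 4.55%). A pooled PBRM1 peak without a PBRM1 peak in any single library stood at 404 standalone lncRNAs (5.97%, against 3.60% of all genes), and a pooled BRG1 peak without a BRG1 library peak stood at 438 (6.48%, against 3.41%). As parts of the pooled calls these were 34.8% and 27.6% at standalone lncRNAs, 10.4% and 8.997% at all genes, and 7.67% and 5.24% at lone coding genes. The difference between these parts was not tested.

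Pooled peaks at standalone lncRNAs were lower than those at lone coding genes. The fold enrichment of a peak is its pileup over the local background, as the peak caller wrote it, and is not on 1 scale across lists. Over all 5′ ends with a pooled peak, its median was 4.34 at standalone lncRNAs and 6.75 at lone coding genes for PBRM1, and 4.74 and 8.61 for BRG1. Among 5′ ends with a peak in all 6 libraries, a class that leaves out low peaks on both sides, the medians were nearer, at 7.04 (284 standalone lncRNAs) and 7.85 (7030 lone coding genes) for PBRM1 and at 9.07 and 10.1 for BRG1. These heights come from the pooled lists and were not tested. Between libraries of 1 antibody, the median coefficient of variation at the 284 was 16.8% for PBRM1 and 10.7% for BRG1. PBRM1 library 3 had the lowest median, 5.37, against 6.80 and 6.45 in libraries 1 and 2, and the BRG1 medians were 7.91, 7.66 and 7.98.

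Summits lay closest to the annotated 5′ end at CpG-rich promoters. Among the 109 CpG-rich standalone lncRNAs with peaks in all 6 libraries, 78.0% of pooled PBRM1 summits and 82.6% of pooled BRG1 summits fell within 250 bp of the 5′ end. Among the 175 CpG-poor ones, 41.1% and 45.1% did. Lone coding genes of the same support had 77.3% and 82.2% when CpG-rich, and 66.4% and 67.9% when CpG-poor. CpG-rich lncRNA promoters thus lay within 1 percentage point of CpG-rich coding promoters, and the CpG-poor ones were lower than their coding counterparts. These values come from the authors' pooled lists and were not tested.

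**Figure D3:**
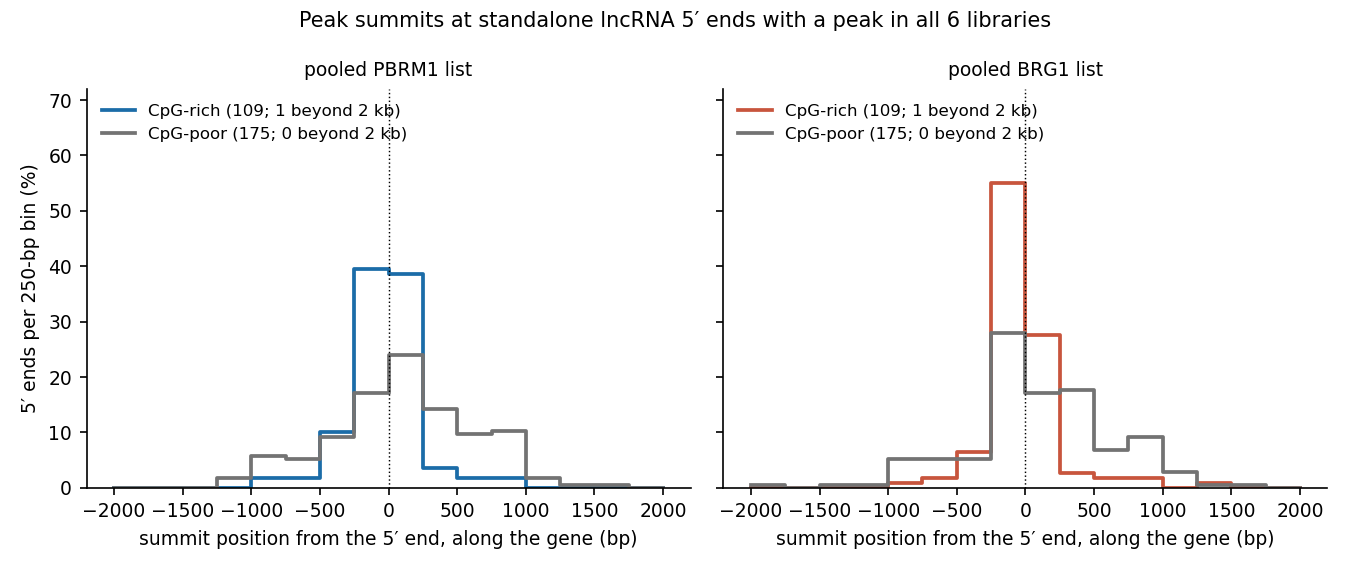
Position of the pooled peak summit from the 5′ end along the direction of the gene (bp, horizontal axes) for standalone lncRNAs with a peak in all 6 libraries, as the percentage of 5′ ends in each 250-bp bin (vertical axis), split into 109 CpG-rich (coloured) and 175 CpG-poor (grey) promoters. CpG-rich summits gather within 250 bp of the 5′ end in 78.0% (PBRM1, left) and 82.6% (BRG1, right), and CpG-poor summits spread over the whole region.

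The lincRNA genes with the strongest PBRM1 peaks in the pooled list lay between genes. *AC110262.3* (ENSMUSG00000117488.1, chr17:23902566-23925497, minus strand), 8019 bp from a start of *Dcpp3*, had PBRM1 fold enrichments of 16.9, 17.3 and 11.9 and BRG1 fold enrichments of 13.99, 17.0 and 17.3. All 6 were high, and its pooled PBRM1 peak of 18.6-fold exceeded 99.9% of that list. The summits lay 782 bp (PBRM1) and 642 bp (BRG1) downstream of the 5′ end, outside the CpG-poor sequence printed above. *AC158605.1* (chr10:82178235-82201488, plus strand), near the zinc finger gene *AU041133*, had PBRM1 values of 18.9, 15.4 and 11.6 and BRG1 values of 18.1, 14.5 and 13.1, with summits 231 and 237 bp downstream. *Gm20732* (chr15:68340983-68363176, minus strand), 104320 bp from *Zfat*, had a CpG-rich promoter with 73.9% G and C. Its PBRM1 values were 15.3, 12.6 and 11.5 and its BRG1 values 15.5, 13.4 and 14.5, with the lowest value in PBRM1 library 3.

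Among the standalone lncRNAs named here, the tallest pooled BRG1 peaks were on chromosome 9, in sequence with near copies elsewhere. *9330159M07Rik* (a processed_transcript, chr9:88840236-88858870, minus strand) and *Gm26611* (a lincRNA, chr9:88859011-88883554, plus strand) start back to back and share 1 peak, with PBRM1 values of 14.2, 13.7 and 9.17 and BRG1 values of 20.5, 18.6 and 17.0. The summit of this peak lay at −140 bp from the first 5′ end and at −1 bp from the second (negative values are upstream), within the CpG-dense sequence printed above. In the pooled BRG1 list it was 26.5-fold, the highest of any standalone lncRNA. *9430037G07Rik* (chr9:88595325-88599516, minus strand), another lincRNA near the *Trim43* genes, had PBRM1 values of 10.7, 11.2 and 10.9 and BRG1 values of 18.3, 17.6 and 15.6. BRG1 exceeded PBRM1 in every library at these 3 genes. Only 27.2%, 27.1% and 19.6% of the 32-bp words of their regions were unique, so that reads of near-identical copies may be split or lost, and their heights are uncertain. *Gm32856* (chr8:129263641-129282844, plus strand), at PBRM1 values of 11.6, 12.1 and 10.2 and BRG1 values of 10.5, 10.2 and 9.77, was intermediate with 56.6% unique words.

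The 3 antisense genes named here were picked for the highest pooled PBRM1 fold enrichment. Their PBRM1 peaks stood at or above the height of their BRG1 peaks in part of the libraries, which the choice itself favours. *1700113A16Rik* (chr3:88171556-88177785, minus strand), 35213 bp from a start of *Mef2d*, had PBRM1 values of 13.5, 14.4 and 10.3 and BRG1 values of 9.42, 10.6 and 9.60. Its summits lay upstream, at −167 bp (PBRM1) and −252 bp (BRG1), the first within the CpG-dense sequence shown and the second 2 bp before its start. *Gm15287* (chr13:111725517-111735124, plus strand), 39166 bp from *Mier3*, had PBRM1 values of 13.5, 12.1 and 10.7 and BRG1 values of 11.1, 12.3 and 12.3. *Fbxl12os* (chr9:20607458-20617271, plus strand) had 13.4, 9.23 and 8.11 for PBRM1 and 12.1, 12.3 and 9.99 for BRG1. The ranges of the antibodies overlapped at each of these 3 genes. As lists are on different scales, these heights do not rank PBRM1 against BRG1 occupancy.

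Among processed_transcript genes, *BB557941* (chr2:57127479-57181754, minus strand) and *4930555B11Rik* (chr2:57181831-57188257, plus strand) also shared a start region and 1 peak. That peak had PBRM1 values of 14.3, 15.7 and 8.79 and BRG1 values of 12.4, 10.8 and 12.8, and 97.8% of the words of either region were unique. Such shared regions were few, since 354 of the 6762 regions overlapped another, including 37 of the 284 with peaks in all 6 libraries, and the 284 rested on 268 separate pooled BRG1 peaks.

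The strongest of the 4 sense_intronic genes with peaks in all 6 libraries were lower. *Gm48591* (chr10:121423664-121462694, minus strand), within an intron of *Rassf3*, had PBRM1 values of 9.40, 5.37 and 3.74 and BRG1 values of 5.58, 5.65 and 5.43, with summits 1059 and 1105 bp inside the gene. With the summit required inside the region it kept a peak in 2 libraries. *Gm13840* (chr5:115515263-115515947, plus strand), within an intron of the focal adhesion gene *Pxn*, had 5.17, 5.17 and 4.27 for PBRM1 and 4.38, 3.54 and 4.69 for BRG1. Both genes stayed under 10-fold in every library.

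BRG1 peaks in 3 of 3 libraries without a PBRM1 peak in any list were found at 12 standalone lncRNAs (0.177%, against 0.137% of all genes). *1600027J07Rik* (chr8:103343878-103347534, minus strand), a lincRNA 561892 bp from *Cdh11*, had BRG1 values of 7.42, 6.29 and 8.19 and no PBRM1 peak in any library or in the pool. Its pooled BRG1 peak of 10.0-fold had its summit upstream, at −191 bp, inside the sequence printed above with 4 CpG. *Gm12868* (chr4:119133749-119138801, minus strand), antisense and 29932 bp from the glucose transporter gene *Slc2a1*, had BRG1 values of 6.74, 6.93 and 5.93. *Gm12602* (chr4:89100664-89128226, minus strand), near *Mtap*, had 6.86, 5.67 and 3.82. It kept a peak in 2 libraries at −log10 q of at least 5 and in 1 with the 20000 strongest peaks. With 2000 bp on either side it had a peak in 4 libraries, so that a PBRM1 library had one there. A missing PBRM1 peak means that no peak passed the caller's threshold at this depth, not that PBRM1 was absent. Over the 62 lncRNAs with BRG1 in 3 of 3 and PBRM1 in 0 of 3, 2 were CpG-rich (3.23%, against 2.87% of all standalone lncRNAs) and the median CpG ratio was 0.31, above the 0.22 of all standalone lncRNAs and below the 0.55 of the 284 with all 6, of which 109 were CpG-rich.

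Known lncRNAs were read by role. A list of 65 lncRNA symbols, grouped by what the RNA is known for, had 57 in GENCODE and 39 among the standalone lncRNAs. Of these 39, 14 had a peak in all 6 libraries, 23 had BRG1 in 3 of 3 and 10 had no library peak, where 4.20%, 7.79% and 80.7% of all standalone lncRNAs and 23.5%, 28.7% and 64.1% of all genes fell in these classes. The counts describe chosen, well-studied genes and carry no test, and the groups below are small.

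Hosts of small nucleolar RNAs (snoRNAs, which guide chemical modification of ribosomal RNA) had peaks most regularly: 7 of 8 had peaks in all 6 libraries. *Snhg5* (chr9:88521050-88522929, minus strand) had PBRM1 values of 10.9, 12.4 and 9.76 and BRG1 values of 11.7, 12.7 and 12.5. *Snhg6* (chr1:9941959-9944118, minus strand) had 7.68, 8.15 and 6.94 for PBRM1 and 13.1, 12.0 and 11.5 for BRG1. At *Snhg6* every BRG1 value exceeded every PBRM1 value, and at *Snhg5* the ranges overlapped. *Snhg15* reached 7.19 to 10.8 (PBRM1) and 10.6 to 14.2 (BRG1), and *Snhg8* reached 7.11 to 10.1 and 9.69 to 10.8. *Snhg17*, *Snhg12* and *Snhg20* were lower, between 4.83 and 8.59 in all libraries. Of these 7, 6 had CpG-rich promoters and *Snhg20*, with its summits 644 bp inside the gene, did not. With 500 bp on either side, *Snhg20* kept a peak in 2 libraries. *Snhg14*, the host of the snoRNA arrays of the Prader-Willi region, had no peak in any list, and its annotated 5′ end had 29.0% G and C.

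Of 9 hosts of microRNAs, 1 had peaks in all 6 libraries, 5 had BRG1 in 3 of 3 and 3 had no library peak. The list also held *Mirt1* in this group, which is not a microRNA host and had no library peak. *Mir22hg* (chr11:75461539-75466676, plus strand) had PBRM1 values of 5.70, 6.37 and 5.65 and BRG1 values of 7.82, 8.09 and 8.85, with summits 2 and 13 bp downstream of the 5′ end. *Dnm3os* (chr1:162217623-162225550, plus strand), an antisense RNA inside *Dnm3* that carries microRNAs of mesenchyme, had BRG1 values of 4.75, 5.52 and 5.65 and PBRM1 values of 4.85 and 3.39 in libraries 2 and 3, with no peak in library 1. *Mir155hg* and *Dleu2* likewise had BRG1 in 3 of 3 and PBRM1 in 2 of 3, both without a peak in PBRM1 library 3. *Mir17hg*, the host of the oncogenic miR-17 cluster, had BRG1 values of 4.79, 5.23 and 5.18 and a PBRM1 peak in the pool alone, at 4.35-fold. *Mir99ahg* had a single library peak, in BRG1 library 2 at 5.53-fold. The brain microRNA hosts *Mir124-2hg*, *Mir124a-1hg* and *Mir9-3hg* had no library peak, although the last 2 have CpG-rich promoters. In the pooled lists *Mir124a-1hg* had a BRG1 peak of 3.25-fold, and *Mir9-3hg* had peaks of 3.31-fold (PBRM1) and 3.71-fold (BRG1).

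At imprinted lncRNAs, 1 of 6 had peaks in all 6 libraries, and none did with peaks of −log10 q of at least 5 or with the 20000 strongest peaks per list, where *Peg13* kept 4 and 5 libraries. *Peg13* (chr15:72805600-72810324, minus strand), a sense_intronic gene of a single exon within *Trappc9*, had PBRM1 values of 6.29, 5.18 and 4.27 and BRG1 values of 5.14, 4.45 and 6.47. *Kcnq1ot1* (chr7:143203458-143296549, minus strand), the antisense RNA that silences genes of the *Kcnq1* cluster in cis, had BRG1 values of 5.58, 5.84 and 5.81 and a PBRM1 peak in library 2 alone, at 3.93. *Airn* (chr17:12741311-12860136, plus strand), which acts likewise on *Igf2r*, had 6.36, 5.07 and 3.48 for BRG1 and 4.43 and 4.28 for PBRM1 in libraries 1 and 2. BRG1 was thus found in every library at all 3 of these intronic starts and PBRM1 in every library at *Peg13* only. *H19* (chr7:142575529-142578143, minus strand), a maternally expressed growth regulator, had BRG1 peaks of 4.16 and 5.17 in libraries 2 and 3 and no PBRM1 peak in any list. *Meg3* had 1 BRG1 library peak of 4.09 and *Mirg*, further along the same imprinted domain, had none.

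The nuclear body RNAs lie side by side on chromosome 19 and differed. *Malat1* (chr19:5795690-5802672, minus strand), an RNA of nuclear speckles, had PBRM1 values of 6.32, 7.16 and 4.62 and BRG1 values of 6.10, 7.27 and 6.53. Its peak sat upstream of the annotated 5′ end, with summits at −668 bp (PBRM1) and −1064 bp (BRG1), so that 3 of the 6 libraries kept it when the summit had to fall in the region. *Neat1* (chr19:5824708-5845478, minus strand), the scaffold of paraspeckles, had low BRG1 peaks of 2.67, 2.47 and 2.90 and 1 PBRM1 peak of 2.90 in library 2. Its pooled peaks were higher than only 5.53% (PBRM1) and 3.46% (BRG1) of the peaks in those lists.

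Among 6 growth and stress lncRNAs, 4 had peaks in all 6 libraries and none lacked a peak. *Epb41l4aos* had PBRM1 values of 10.9, 10.2 and 10.2 and BRG1 values of 12.2, 12.6 and 12.5, and *1700020I14Rik* had 10.2, 7.24 and 7.23 for PBRM1 and 11.01, 13.2 and 10.4 for BRG1. *Pvt1* (chr15:62037986-62378096, plus strand), 50564 bp from *Myc* and often amplified with it in tumours, had PBRM1 values of 6.78, 4.63 and 5.96 and BRG1 values of 8.83, 7.26 and 7.24. *Lncpint*, a target of p53, had 3.46 to 5.28 and 4.12 to 4.90. In the first 3 of these genes every BRG1 value exceeded every PBRM1 value. *Trp53cor1* (chr17:29057430-29079179, minus strand), known as lincRNA-p21 and 11800 bp from *Cdkn1a*, had BRG1 values of 5.46, 5.40 and 5.96 and PBRM1 values of 7.14 and 4.48 in libraries 1 and 2. *Lncenc1*, an RNA of naive embryonic stem cells, had peaks in 1 PBRM1 and 2 BRG1 libraries.

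Developmental lncRNAs were the least occupied of the list, with none of 7 in all 6 libraries and 4 without a library peak. Those without any peak, in the pooled lists too, were *Hotair* of the HoxC cluster and the neural RNAs *Sox2ot*, *Rmst* and *Dlx6os1*. *Miat* had BRG1 values of 4.79, 3.60 and 3.85 and a PBRM1 value of 3.68 in library 1. *Pantr2*, near *Pou3f3*, had 4.33 and 5.54 in BRG1 libraries 1 and 3 and 4.81 in PBRM1 library 3. *Bvht*, a cardiac lineage RNA, was the 1 gene here with more PBRM1 than BRG1 library peaks, at 4.29 and 4.07 against a single 4.47. With 2000 bp on either side, *Bvht* had a peak in all 6 libraries.

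**Figure D4:**
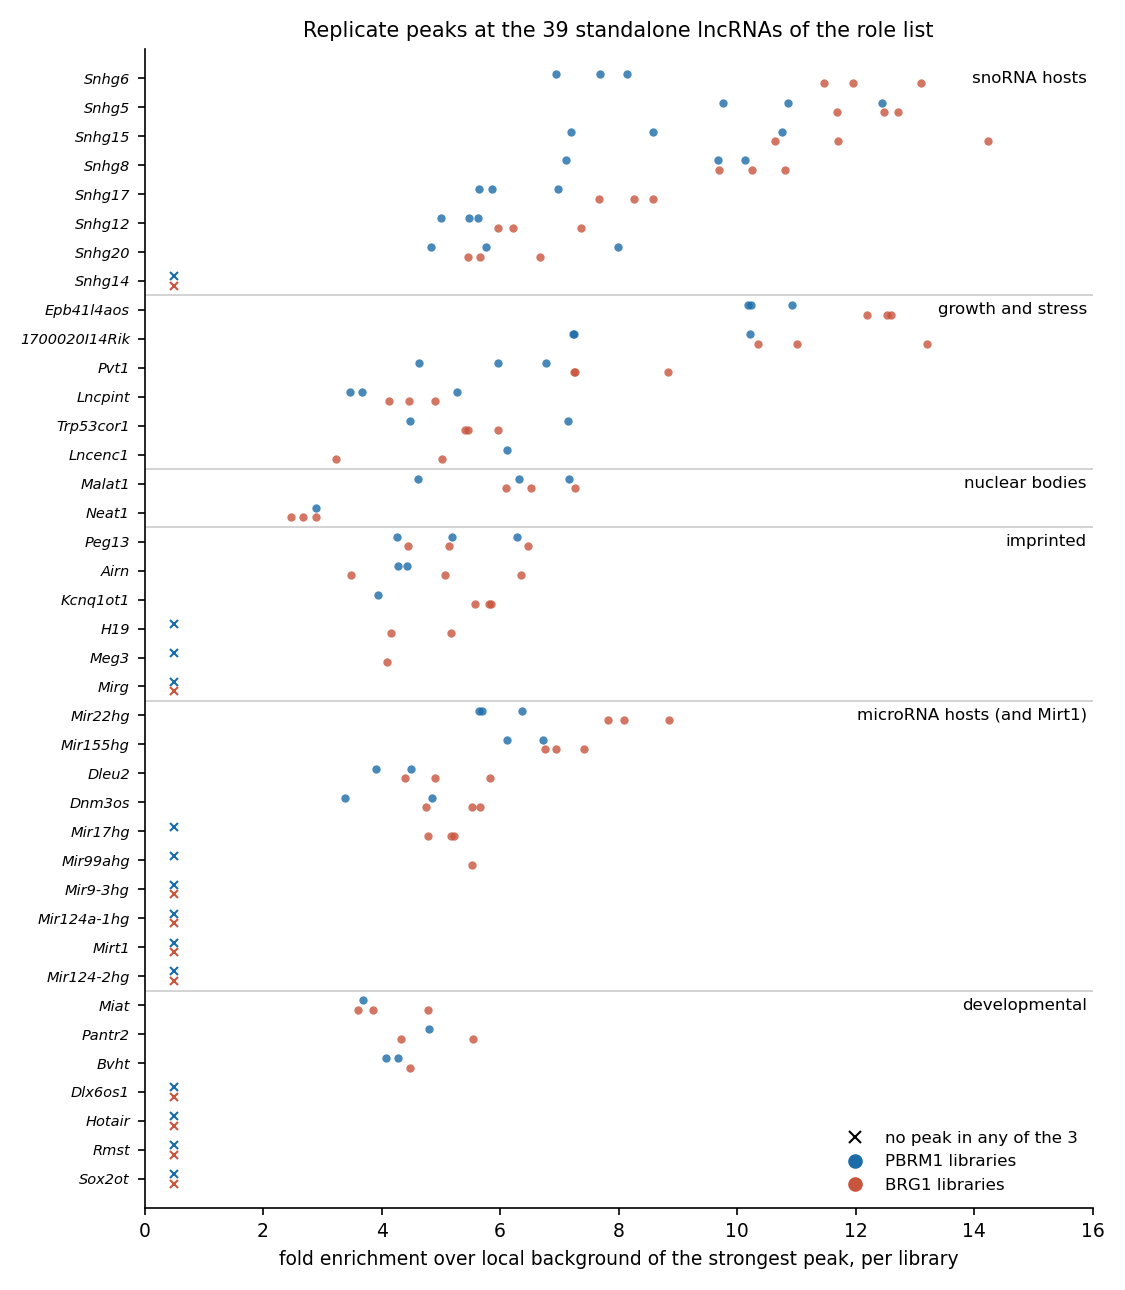
Fold enrichment over local background of the strongest peak in each PBRM1 and BRG1 library (horizontal axis) at the 39 standalone lncRNAs of the role list (rows, grouped by role), with 1 point for each library that had a peak and a cross, placed at a fixed position left of the points, where none of the 3 had one. The snoRNA hosts except *Snhg14* and the upper growth genes carry points from all 6 libraries, and the lower microRNA hosts and developmental genes carry crosses.

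Several features of annotation went with the share of standalone lncRNAs that had a peak. The share was lower further from coding starts, going from 10.9% ± 0.568 (PBRM1) and 17.2% ± 0.417 (BRG1) among 635 genes at 5 to 10 kb to 4.10% ± 0.768 and 7.51% ± 0.857 among 2287 genes beyond 100 kb (SD, n = 3 libraries). It was higher where more transcripts were annotated, at 6.01% ± 0.671 and 10.1% ± 0.906 for 5167 genes with 1 transcript and 21.8% ± 1.02 and 30.6% ± 0.588 for 170 genes with 5 or more. The number of exons showed no such step, with PBRM1 shares of 8.33%, 7.49% and 7.61% for 1, 2 and 3 or more exons. The BRG1 shares were slightly higher with more exons, at 11.1%, 11.9% and 12.6%. Genes with a symbol of their own, 351 in number, had peaks at 16.1% ± 1.43 (PBRM1) and 23.1% ± 1.24 (BRG1), against 6.17% ± 0.735 and 10.4% ± 0.906 of 4672 genes named only by a Gm number. CpG content moved with most of these features, as 5.98% of genes at 5 to 10 kb and 1.44% of those beyond 100 kb were CpG-rich, and its part in them was not tested.

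Starts on repeats and in introns of coding genes had peaks less often than other starts. Where the 5′ end itself was a repeat-masked base (1410 genes, 20.9%, against 9.64% of lone coding genes), PBRM1 peaks were at 2.55% ± 0.309 and BRG1 peaks at 5.77% ± 0.532, against 8.94% ± 0.9004 and 13.98% ± 1.01 of the others (SD, n = 3). Regions with under 50% unique words (373 genes) had them at 1.88% in each PBRM1 library and at 2.41% ± 0.536 for BRG1. Starts between coding genes (4989) had peaks at 8.30% ± 0.931 and 13.0% ± 0.847, starts in introns of coding genes (1473) at 4.71% ± 0.854 and 8.92% ± 1.09, and starts over a coding exon (300) at 10.2% ± 0.694 and 17.2% ± 1.17. Chromosome 17 had the highest fraction with peaks in all 6 libraries, 33 of 291 (11.3%), and chromosome 8 the lowest, 6 of 411 (1.46%). These splits describe the regions and were not tested.

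**Figure D5:**
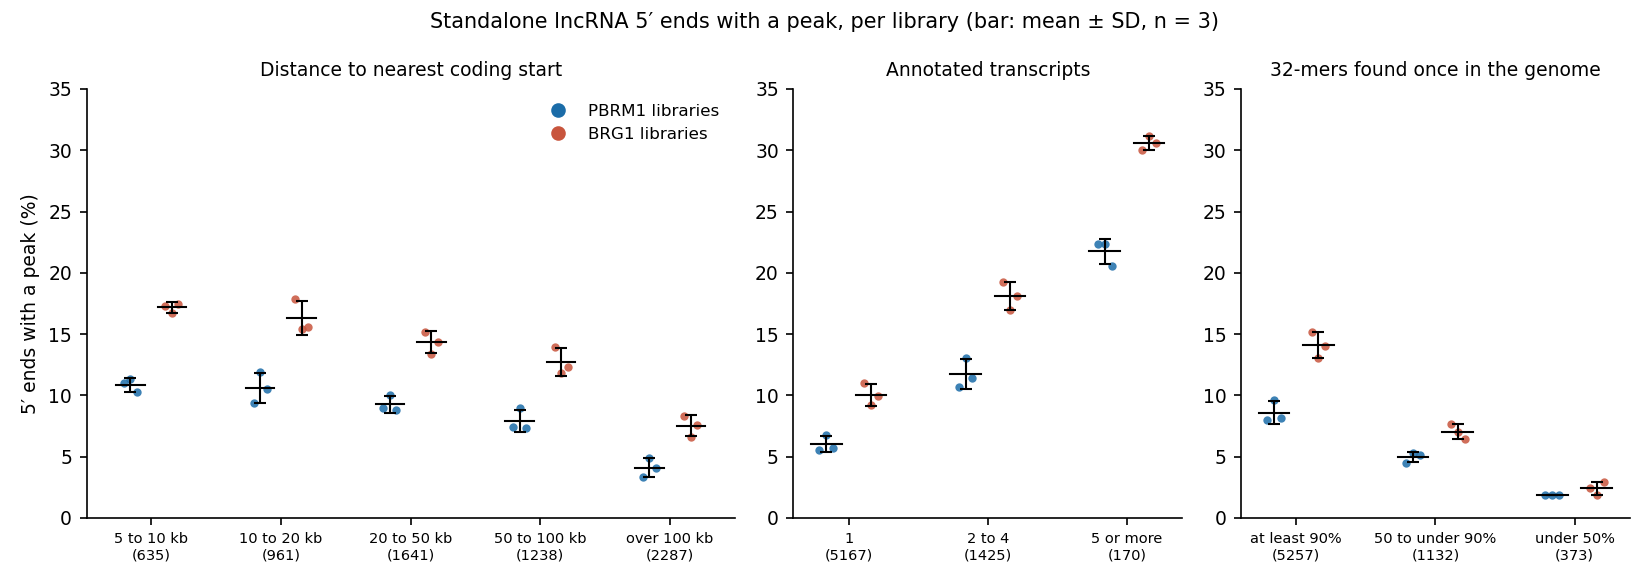
Share of standalone lncRNA 5′ ends with a peak (%, vertical axes) in each PBRM1 and BRG1 library, by distance to the nearest coding start (left), number of annotated transcripts (middle) and share of unique 32-bp words in the region (right), with the number of genes under each class and bars for mean ± SD (n = 3). The BRG1 share goes from 17.2% to 7.51% across distance and is 30.6% with 5 or more transcripts.

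Short motifs were counted in the 300 bp from 250 bp before to 49 bp after the 5′ end, and those that hold CpG themselves were more frequent at promoters with peaks. The letters GGGCGG, a core of GC boxes, occurred on either strand in 46.5% of the 284 standalone lncRNAs with peaks in all 6 libraries and in 6.21% of the 5458 without a library peak, against 23.6% of all genes. CGCGC occurred in 38.0% and 3.37% (19.9% of all genes). Within the 284, GGGCGG stood in 74.3% of CpG-rich and 29.1% of CpG-poor promoters. CCAAT was as frequent with peaks as without, at 38.4% and 37.4% (38.2% of all genes), and TATAAA was less frequent with peaks, at 7.39% and 17.4% (17.2% of all genes). The AP-1 type letters TGANTCA were found in 6.34% of the 284, in 10.7% of the 5458 and in 13 of the 62 promoters (20.97%) with BRG1 in 3 of 3 and PBRM1 in 0 of 3, against 10.6% of all standalone lncRNAs and 7.95% of all genes. Matches are to letters, GGGCGG and CGCGC can overlap, and none of these shares was tested.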

How the data were processed

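Peak lists of ChIC-Seq libraries from D4 WT uterine stromal cells were used, with 3 PBRM1 and 3 BRG1 libraries and 1 pooled list for each antibody. The authors trimmed reads, aligned them with Bowtie2 (build GRCm38.p5 per the labels), removed multimapping and duplicate reads, and called peaks with MACS 2.2.7.1 without a control library. The deposited lists give each peak's pileup (signal), its fold enrichment as a ratio to the local background, and −log10 p-values and q-values. Per the file headers, the q cutoff was 0.05 and the local background was taken over 10000 bp.

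Genes came from GENCODE M21 and sequence from RefSeq GRCm38.p6, and every peak fell inside the length of its chromosome there. A region had a peak with at least 1 bp of overlap, and the strongest overlapping peak gave its fold enrichment. Antibodies were compared by exact two-sided permutation over libraries (3 against 3), and classes of regions by an exact two-sided sign-flip test over the 6 libraries with Benjamini-Hochberg adjustment over 8 comparisons. Named genes were, among those with a peak in all 6 libraries, the 6 lincRNA and the 3 of each other type with the highest pooled PBRM1 fold enrichment; the 3 with BRG1 in 3 of 3, no PBRM1 peak in any list and the highest pooled BRG1 fold enrichment; and all members of the role list. The members and lists were chosen with earlier results of these data known. Peak counts and fragments per list set the depth, and a peak list holds no value below its threshold. Scripts were tested on simulated data and ran with scipy 1.17.1 and numpy 2.4.6 (tests), pandas 2.3.3 (joins) and matplotlib 3.10.9 (plots) under Python 3.11.15. The IgG libraries were not analysed here.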

Additional observations from a re-analysis of the deposited data

How the results depend on the processing

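The 14 comparisons were recomputed under 9 alternative settings, of which the restriction to unique sequence was chosen after seeing the data, and for the 8 sign-flip comparisons 69 of 71 values kept their direction and their side of the threshold. The 6 BRG1 against PBRM1 comparisons cannot pass 0.05 with 3 libraries a group, so that only their values can be read. With the 20000 strongest peaks per list, the difference over all standalone lncRNAs was 0.104 percentage points, and 3 of the 6 differences turned sign, to −0.379 (antisense) and −0.176 (processed_transcript) percentage points and −0.032 (log2 ratio to lone coding genes). The lincRNA minus antisense difference lost the threshold at 2000 bp on either side (0.719, exact sign-flip p = 0.0625) and without overlapping regions (0.445, p = 0.156), and lincRNA minus sense_intronic ranged from 2.74 to 5.32.

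Leaving out 1 library reversed 0 of 84 values, but the sign-flip test over 5 libraries cannot go below 0.0625, so that no call could hold. The ranges were 0.612 to 0.971 (lincRNA minus antisense), −12.5 to −11.9 (minus processed_transcript), 4.07 to 4.58 (minus sense_intronic), −43.8 to −42.6 (standalone lncRNA minus lone coding), −44.2 to −43.0 (minus near-coding lncRNA), 60.6 to 62.2 (CpG-rich minus CpG-poor), −21.5 to −20.6 (minus lone coding, CpG-rich) and −18.1 to −17.3 (CpG-poor). BRG1 minus PBRM1 ranged from 4.18 to 5.10.

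Same-numbered PBRM1 and BRG1 libraries did not deviate together (r between −0.0283 and 0.00567 over 12049 regions). These values cannot settle whether same-numbered libraries came from the same cell preparation. With the replicate block, the values 0.833, −12.2, 4.40, −42.9, −43.3, 61.1, −21.2 and −17.5 (in the order above) were the same, and the exact p of 0.25 is the smallest that 3 numbers allow.

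Among 56 named genes, 43 kept their number of libraries with a peak at −log10 q of at least 5, 44 with the 20000 strongest peaks, 53 with the summit inside the region, 50 at 500 bp and 52 at 2000 bp. At 404 (PBRM1) and 438 (BRG1) standalone lncRNAs, a pooled peak stood without a peak in any single library of that antibody. Whether depth played a part in this was not tested.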
